A study of Homo sapiens with 12 samples.

Results

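The EMT transcription factors are the proteins that switch a cell between an epithelial and a mesenchymal gene programme. The list held 10 genes of the 62703 Ensembl identifiers in the deposited tables, matched by symbol. SNAI1, SNAI2, ZEB1, ZEB2, TWIST1, TWIST2 and PRRX1 were taken as activators of EMT, and GRHL2, OVOL1 and ESRP1 as regulators of the epithelial state. All 10 were found. Of these, 5 had at least 1 TPM (a length-corrected share of the transcripts of a library, scaled to the same total in each) in 3 or more libraries and were tested, namely SNAI1, SNAI2, ZEB1, ZEB2 and TWIST1. A gene passing this filter only through the group in which it is high had to differ, so the counts below describe these 5 genes and not the whole list.

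RNA was sequenced from HK2 cells, an immortalised line of human renal proximal tubular epithelial cells, in 12 libraries of 4 groups with 3 libraries each. Per the labels, NG cells were kept in 5.5 mM glucose with a control vector, whereas the text of the study also describes mannitol in the NG medium, so that the NG medium is uncertain. HG cells were exposed to 50 mM glucose. The si-FGF9 group was cultured in 5.5 mM glucose and transfected with an siRNA against FGF9, a growth factor of the fibroblast growth factor family, and the HG+OE-FGF9 group received an FGF9-overexpressing vector in 50 mM glucose, a lentivirus per the labels and elsewhere in the study an adenovirus. All groups shared one basal medium with serum, and all derive from 1 cell line. The sources used here describe no non-targeting siRNA and no duration of treatment, and do not say whether HG and si-FGF9 cells received the control vector. The labels do not say whether the 3 libraries of a group came from separate cultures, so that p-values measure only the spread between these libraries. TPM keep no record of depth, and the depth of each library is unknown. In bulk RNA, fewer cells of a type and less RNA per cell cannot be told apart.

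SNAI1 and SNAI2 (Snail and Slug) and ZEB1 and ZEB2 are zinc finger repressors that bind E-box sequences in the promoters of E-cadherin and other epithelial genes. TWIST1 and TWIST2 are basic helix-loop-helix (bHLH) factors that act as dimers, and PRRX1 is a homeobox factor of mesenchyme. GRHL2 and OVOL1 hold ZEB1 down in epithelia, ESRP1 directs epithelial splicing, and the miR-200 family of microRNAs lowers ZEB1 and ZEB2 in a mutual repression loop. In the kidney, these factors are studied for the partial EMT of injured tubules and for fibrosis.

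Sequence is shown for ZEB1, whose log2 fold change was the largest of the 5 tested members in both HG and si-FGF9 versus NG. The bases below lie just before a RefSeq start site of ZEB1 at chr10:31318167-31318416 on the plus strand of GRCh38.p14, upstream of the first base of ZEB1 in GENCODE v29 and inside the antisense gene ZEB1-AS1. Capitals mark each E-box of the form CANNTG. The second of them, CAGGTG, is the reverse complement of CACCTG, the form that ZEB and Snail proteins are known to bind.

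ZEB1: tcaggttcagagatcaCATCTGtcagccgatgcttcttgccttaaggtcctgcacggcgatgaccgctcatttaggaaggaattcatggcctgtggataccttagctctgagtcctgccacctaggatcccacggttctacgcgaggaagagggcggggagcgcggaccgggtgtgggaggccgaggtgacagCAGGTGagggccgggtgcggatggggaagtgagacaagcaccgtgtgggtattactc

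RefSeq gave 7 start windows for ZEB1, each of 250 bases before and 50 after a start, and 2 of them held CACCTG on either strand, with 4 matches in all. This was the case in 20.6% of 35116 promoter windows of the same length. The single ZEB2 window held 1 CANNTG, which 68.7% of all windows hold, and 0 CACCTG. No ZEB1 or ZEB2 window held the AP-1 letters TGANTCA (7.71% of all windows), the EGR1 letters GCGNGGGCG (9.43%) or TATAAA (11.5%). The letters GGGCGG, read by SP and KLF factors, stood in 5 of the 7 ZEB1 windows and not in that of ZEB2 (45% of all windows). These matches describe letters and not sites of binding. Start windows were given for 2 other members, PRRX1 and TWIST2, and neither of those held CACCTG.

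The mature miR-200 sequences are shown because ZEB1 and ZEB2 are their best known targets. Capitals mark the seed, bases 2 to 8, by which the 5 microRNAs fall into a group with the seed AAUACUG and a group with AACACUG.

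hsa-miR-200b-3p: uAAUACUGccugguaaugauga
hsa-miR-200c-3p: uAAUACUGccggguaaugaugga
hsa-miR-429: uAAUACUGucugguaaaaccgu
hsa-miR-200a-3p: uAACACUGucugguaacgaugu
hsa-miR-141-3p: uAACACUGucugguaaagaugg

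The longest transcript of ZEB1 held 6 matches to the first seed (CAGTATT) and 7 to the second (CAGTGTT), and so did that of ZEB2. Of 19922 protein-coding genes, 0.0502% held as many of the first and 0.0552% as many of the second, in transcripts of all lengths. SNAI1 and TWIST1 held none, and SNAI2 held 1 match to the first seed. The microRNAs themselves were not measured in these libraries. The host transcript of miR-200c and miR-141, MIR200CHG, was listed at 0 in all 12 libraries.

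The targeted gene was examined first. FGF9 was listed at 0 TPM in the 3 NG, the 3 HG and the 3 si-FGF9 libraries, so that its level gives no check of the siRNA. In the HG+OE-FGF9 group it had 3.34, 4.03 and 3.82 TPM. As for the cell type, 6 of 11 proximal tubule markers had a mean of at least 1 TPM, among them PAX8, PAX2 and AQP1, with a summed level of 115.4 to 247.1 TPM over the libraries, whereas the endocytic receptor LRP2 reached 0.02 TPM at most. The summed endothelial markers did not pass 0.15 TPM, and CD68 was the only leukocyte marker of 4 with a mean of at least 1 TPM. Several measures of the whole library moved with the groups. Genes with at least 1 TPM numbered 13795 to 13949 in NG and 11549 to 12013 in si-FGF9, mitochondrial genes took 4.94% to 8.60% of TPM in si-FGF9 and 11.3% to 15.6% elsewhere, and small nuclear and nucleolar RNAs had 5275 to 16630 TPM in HG+OE-FGF9 and 206.8 to 832.8 TPM elsewhere. The part of these in the results below was not tested.

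HK2 cells expressed 5 activators and almost none of the epithelial regulators on the list. TWIST2, GRHL2 and OVOL1 were listed at 0 TPM in all 12 libraries. PRRX1 was listed at 0 in 11 libraries and at 0.01 TPM in si-FGF9 replicate 3. ESRP1 was listed at 0 in 3 libraries and reached 0.31 TPM in NG replicate 1, its highest value. Neither group order nor fold change can be read from these 5 genes.

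SNAI1 (ENSG00000124216), an early-acting EMT factor, lies at chr20:49982999-49988886 on the plus strand of GRCh38. It had 15.76, 17.09 and 17.71 TPM in NG and 15.73, 16.84 and 13.21 TPM in HG. The si-FGF9 libraries had 8.88, 9.87 and 8.65 TPM and the HG+OE-FGF9 libraries 21.27, 20.86 and 17.13 TPM. The si-FGF9 libraries lay below all 9 others, and the HG+OE-FGF9 libraries lay above all 3 HG libraries but not above all NG libraries.

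SNAI2 (ENSG00000019549), which represses the same E-boxes and marks neural crest and basal epithelia, lies at chr8:48917604-48921740 on the minus strand. Its level was 16.49, 12.19 and 10.76 TPM in NG and 9.78, 6.90 and 6.33 TPM in HG. The si-FGF9 libraries had 2.27, 4.21 and 3.42 TPM and the HG+OE-FGF9 libraries 4.74, 4.36 and 7.43 TPM. NG was highest and did not overlap any other group, and si-FGF9 was lowest and did not overlap any other group.

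ZEB1 (ENSG00000148516), at chr10:31318495-31529814 on the plus strand, had 7.20, 8.05 and 6.88 TPM in NG. It had 1.24, 0.51 and 2.15 TPM in HG. The si-FGF9 libraries had 1.37, 1.37 and 0.55 TPM and the HG+OE-FGF9 libraries 1.13, 0.61 and 0.82 TPM. The lowest NG library stood above the highest of the 9 others, and the 3 other groups overlapped one another. With levels near 1 TPM and an unknown depth, the values outside NG may rest on few reads.

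ZEB2 (ENSG00000169554), the paralogue of ZEB1, lies at chr2:144364364-144524583 on the minus strand. Its level was 12.07, 10.77 and 9.17 TPM in NG and 4.81, 3.04 and 5.27 TPM in HG. The si-FGF9 libraries had 3.70, 2.64 and 3.14 TPM and the HG+OE-FGF9 libraries 2.84, 3.36 and 3.39 TPM. As for ZEB1, NG stood apart and the other groups overlapped.

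TWIST1 (ENSG00000122691) lies at chr7:19020991-19117672 on the minus strand. It had 14.88, 14.17 and 13.91 TPM in NG and 11.39, 9.49 and 18.87 TPM in HG. The si-FGF9 libraries had 11.85, 13.59 and 9.0 TPM and the HG+OE-FGF9 libraries 7.59, 6.70 and 12.20 TPM. HG replicate 3 held the highest value of all 12 and HG replicate 2 a value below all 3 NG libraries, so that the HG group spanned NG.

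**Figure D1:**
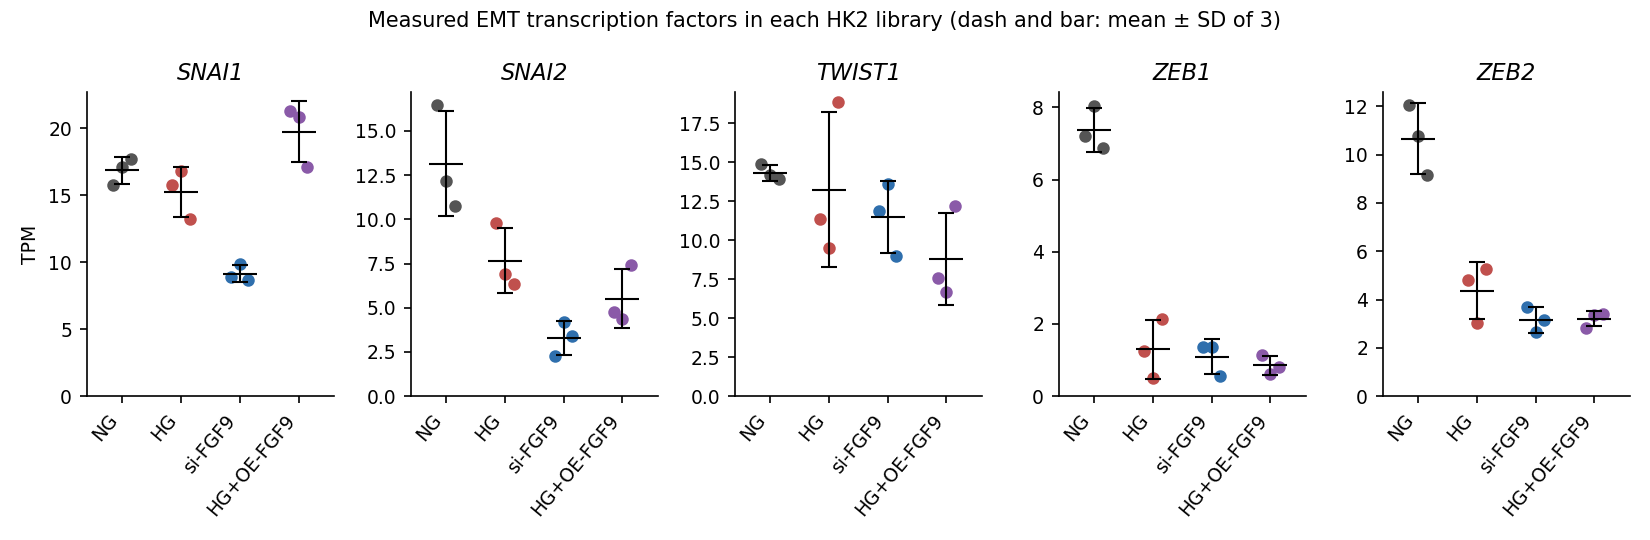
TPM of the 5 tested members in each of the 12 libraries (points), with the mean and SD of the 3 libraries of a group (dash and bar). ZEB1 and ZEB2 are high in the 3 NG libraries (6.88 to 8.05 and 9.17 to 12.07 TPM) and low in the other 9, whereas SNAI1 is lowest in si-FGF9 (8.65 to 9.87 TPM).

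The order of the 5 factors by TPM, a level per length of transcript, differed between groups. In NG, SNAI1 was highest at 16.9 ± 0.996 TPM (mean ± SD, n = 3), followed by TWIST1 at 14.3 ± 0.502, SNAI2 at 13.2 ± 2.98, ZEB2 at 10.7 ± 1.45 and ZEB1 at 7.38 ± 0.605 TPM. TWIST1 and SNAI2, and SNAI2 and ZEB2, overlapped over the NG libraries, and the other neighbours did not. In HG the order was the same, with SNAI1 at 15.3 ± 1.86, TWIST1 at 13.3 ± 4.96, SNAI2 at 7.67 ± 1.85, ZEB2 at 4.37 ± 1.18 and ZEB1 at 1.30 ± 0.822 TPM, where SNAI1 overlapped TWIST1 and TWIST1 overlapped SNAI2. In si-FGF9, TWIST1 came first at 11.5 ± 2.32 and SNAI1 second at 9.13 ± 0.648 TPM, with overlapping libraries. There SNAI2 at 3.30 ± 0.976 and ZEB2 at 3.16 ± 0.530 TPM also overlapped, and ZEB1 stood below both at 1.10 ± 0.473 TPM. In HG+OE-FGF9, SNAI1 at 19.8 ± 2.28 TPM stood clear of TWIST1 at 8.83 ± 2.95, SNAI2 at 5.51 ± 1.67, ZEB2 at 3.20 ± 0.309 and ZEB1 at 0.853 ± 0.262 TPM. Of these neighbours TWIST1 and SNAI2 overlapped.

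The comparison of HG with NG asks what high glucose does to HK2 cells. For TPM as deposited, ZEB1 and ZEB2 fell in HG, and SNAI2 fell by a smaller amount (but was at 0.24 with GC content corrected). SNAI1 and TWIST1 did not pass the test. ZEB2 was not called with the median of ratios (-0.67), quantile normalisation (-0.52) or GC content corrected (-0.06). With GC content corrected ZEB1 was not called either, at -0.83. The mean level of ZEB1 was 5.67-fold lower and that of ZEB2 2.44-fold lower than in NG. A gene counted as called where limma gave an unadjusted p under 0.01 and the groups differed by 1 or more in log2(TPM + 1), a scale on which changes of low genes come out too small. By that rule 2 of the 5 tested members were called lower and 0 higher, beside 22.7% and 1.65% of all 14639 tested genes. At an adjusted p under 0.05, 3 of 5 were lower and 0 higher, beside 40.5% and 8.53% of all tested genes. The log2 fold change of ZEB1 was -1.93 (SE 0.266, limma adjusted p = 0.000685) and that of ZEB2 was -1.14 (SE 0.204, adjusted p = 0.00153). For SNAI2 it was -0.71 (SE 0.255, adjusted p = 0.0374), under the limit on the fold change. SNAI1 was at -0.14 (95% interval -0.47 to 0.19) and TWIST1 at -0.16 (-0.73 to 0.42). HG did not overlap NG for ZEB1, ZEB2 and SNAI2, which were lower, as were 46.5% of all tested genes without overlap. The median log2 fold change of all tested genes was itself -0.39. ZEB2 was not called without HG replicate 2, at -0.94.

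The comparison of si-FGF9 with NG asks what an siRNA against FGF9 does at normal glucose. For TPM as deposited, SNAI2, ZEB1 and ZEB2 were called lower (ZEB2 was at 0.13 with GC content corrected). SNAI1 fell without reaching the limit on the fold change (but was at 0.15 with the median of ratios). SNAI2 was not called with the median of ratios (-0.82), quantile normalisation (-0.69) or GC content corrected (-0.27). ZEB2 was not called under these either, and ZEB1 was not called with GC content corrected, at -0.39. ZEB1 was 6.73-fold, SNAI2 3.98-fold, ZEB2 3.38-fold and SNAI1 1.85-fold lower in mean TPM. Thus 3 of 5 tested members were called lower and 0 higher, while 42.2% and 5.36% of all tested genes were. At an adjusted p under 0.05, 4 of 5 were lower and 0 higher, beside 57.7% and 11.6%. The log2 fold change was -2.02 for ZEB1 (SE 0.266, limma adjusted p = 3.93e-05), -1.72 for SNAI2 (SE 0.255, adjusted p = 8.62e-05), -1.49 for ZEB2 (SE 0.204, adjusted p = 5.10e-05) and -0.82 for SNAI1 (SE 0.152, adjusted p = 0.000447). TWIST1 was at -0.31 (95% interval -0.89 to 0.26, adjusted p = 0.311), although its 3 si-FGF9 libraries lay below the NG libraries, as for the 4 other members and for 62.1% of all tested genes. The median of all tested genes was -0.79. HG and si-FGF9 are compared with the same NG libraries, so that the likeness of both sets of values is not independent. Set directly against HG, si-FGF9 had lower SNAI2 at -1.02 (SE 0.255, adjusted p = 0.013), called beside 9.67% of all tested genes, and lower SNAI1 at -0.68 (SE 0.152, adjusted p = 0.00843), while ZEB1, ZEB2 and TWIST1 overlapped. At an adjusted p under 0.05 these were 2 of 5 members, beside 28.1% of all tested genes. The SNAI2 call was lost without si-FGF9 replicate 1, at -0.83, and without HG replicate 1, at -0.85. It was also lost with the median of ratios (-0.60), quantile normalisation (-0.56) and GC content corrected (-0.51), and SNAI1 was at -0.20 (adjusted p = 0.51) with the median of ratios.

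The comparison of HG+OE-FGF9 with HG asks whether added FGF9 changes the response to high glucose. None of the 5 tested members was called in either direction in limma, beside 2.67% of all tested genes called lower and 2.94% higher, and 1 had an unadjusted p under 0.05. At an adjusted p under 0.05 none was lower or higher, beside 4.71% and 4.82%. The gene with the unadjusted p under 0.05 was SNAI1, 1.29-fold higher in mean TPM with a log2 fold change of 0.35 (95% interval 0.02 to 0.68, adjusted p = 0.157). Its HG+OE-FGF9 libraries did not overlap HG, as for 12.2% of all tested genes that were higher. The 4 other members were at -0.42 for SNAI2 (95% interval -0.98 to 0.13), -0.26 for ZEB1 (-0.84 to 0.32), -0.33 for ZEB2 (-0.78 to 0.11) and -0.52 for TWIST1 (-1.10 to 0.05). These 4 intervals include 0.

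Against NG, and for TPM as deposited, 3 of 5 tested members were called lower in HG+OE-FGF9 beside 32.7% of all tested genes (4 of 5 beside 48.5% at an adjusted p under 0.05), with log2 fold changes of -2.18 for ZEB1 (SE 0.266, limma adjusted p = 5.66e-05), -1.47 for ZEB2 (SE 0.204, adjusted p = 0.000101) and -1.13 for SNAI2 (SE 0.255, adjusted p = 0.00212). With GC content corrected none of these 3 was called, at -0.76 for ZEB1, -0.08 for ZEB2 and 0.07 for SNAI2. With the median of ratios ZEB1 was called at -1.63, while ZEB2 at -0.86 and SNAI2 at -0.51 were not, and neither was called with quantile normalisation. SNAI1 was at 0.21 (95% interval -0.12 to 0.54) and TWIST1 at -0.68 (adjusted p = 0.0389). SNAI1 was called lower in si-FGF9 than in HG+OE-FGF9, at -1.03 (SE 0.152, adjusted p = 0.000947), beside 7.36% of all tested genes, and it was 1 of 5 members lower at an adjusted p under 0.05, beside 20.2%. This call was lost in 3 of the 6 fits that left out 1 library of those groups (si-FGF9 replicate 3 and HG+OE-FGF9 replicates 1 and 2), where the value was -0.98 at the least. It was also lost under the other scalings, at -0.71 with the median of ratios, -0.67 with quantile normalisation and -0.76 with GC content corrected. The SNAI2 call against NG was lost without NG replicate 1, at -0.97.

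Against NG, the fold changes of the members were lower for transcripts of low GC content, as were the medians of all genes. ZEB1 (38.5% GC in its longest transcript) and ZEB2 (39.1%) lie in the second lowest decile of the tested genes and SNAI2 (41.4%) in the third, while TWIST1 (57.2%) and SNAI1 (58.2%) lie in the eighth and ninth. In HG versus NG the median log2 fold change was -1.08 in the decile of the ZEB genes, -0.91 in that of SNAI2, 0.00 in that of TWIST1 and 0.12 in that of SNAI1. ZEB2 at -1.14 stood close to its decile, and ZEB1 at -1.93 stood below it. In si-FGF9 versus NG the medians were -1.63, -1.44, -0.28 and -0.11 in the same order, and SNAI1 at -0.82 was the member farthest below its own. In HG+OE-FGF9 versus HG they were -0.33, -0.27, 0.02 and 0.01, and there the members did not follow them, since TWIST1 at -0.52 was lower than ZEB1 at -0.26 and ZEB2 at -0.33.

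**Figure D2:**
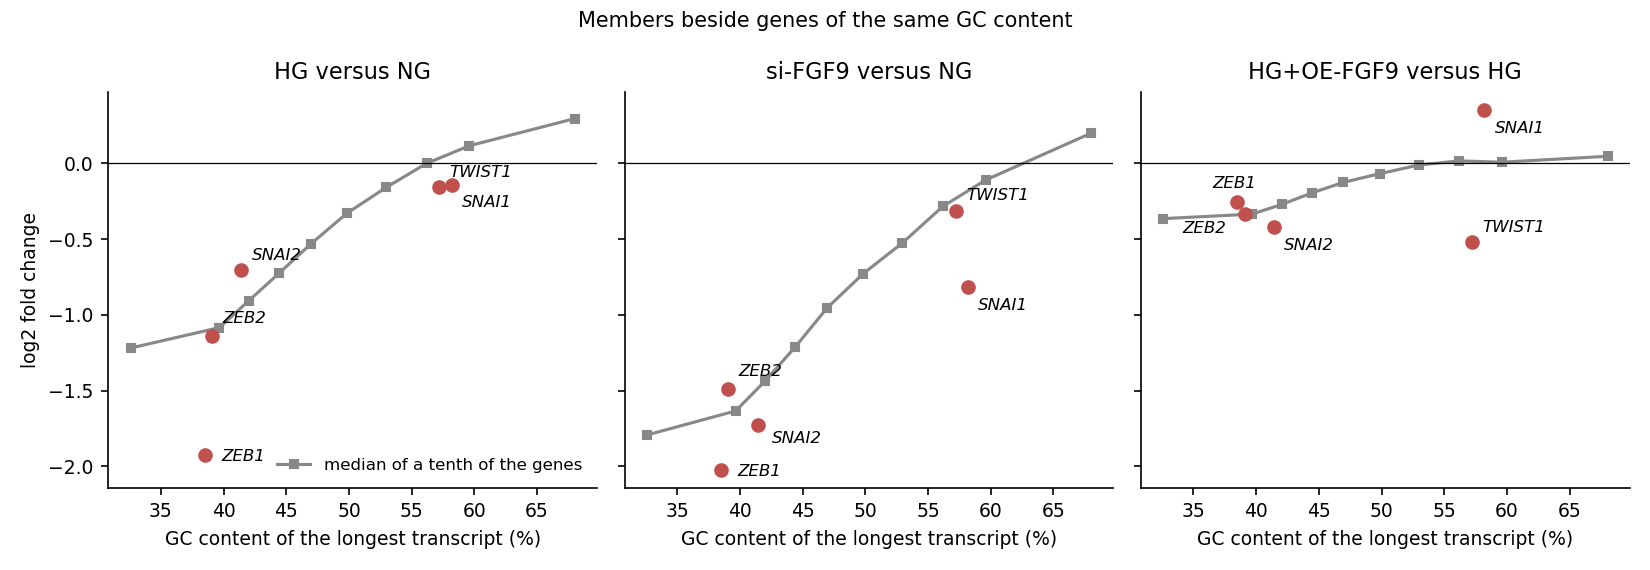
Log2 fold change of the 5 tested members (red points) against the GC content of the longest transcript, over the median of each decile of the tested genes by GC content (grey squares at the middle of each decile's range). The medians rise with GC content in HG versus NG from -1.22 to 0.30, and ZEB1 at -1.93 lies below the line there while ZEB2 at -1.14 lies near it.

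The scaling also moved the calls over all genes. With the median of ratios, 8.27% of tested genes were called lower and 7.43% higher in HG versus NG, and 17.5% and 19.2% in si-FGF9 versus NG. With GC content corrected within each library, no member was called in any of the 3 comparisons. ZEB1 then had a log2 fold change of -0.83 in HG versus NG (95% interval -1.23 to -0.44, adjusted p = 0.00666) and -0.39 in si-FGF9 versus NG (-0.78 to 0.01, adjusted p = 0.0851). ZEB2 was at -0.06 and 0.13 and SNAI2 at 0.24 and -0.27 in these comparisons, with intervals that include 0. SNAI1 kept -0.66 in si-FGF9 versus NG (-0.94 to -0.38, adjusted p = 0.00103). Scaled by the median of ratios, ZEB1 was still called, at -1.48 in HG and -1.28 in si-FGF9, and with quantile normalisation at -1.33 and -1.04. ZEB2 was not called under either, at -0.67 and -0.60 with the median of ratios. Under these scalings, which set the median gene to about 0, TWIST1 was higher in si-FGF9 than in NG, at 0.66 (adjusted p = 0.0131) and 0.67 (adjusted p = 0.0117), and SNAI1 was at 0.15 under both. In HG and si-FGF9 the direction of SNAI1 and TWIST1 against NG thus turned with the scaling, and that of ZEB1 did not. With GC content corrected, that of SNAI2 turned in HG and that of ZEB2 in si-FGF9, with intervals that include 0.

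**Figure D3:**
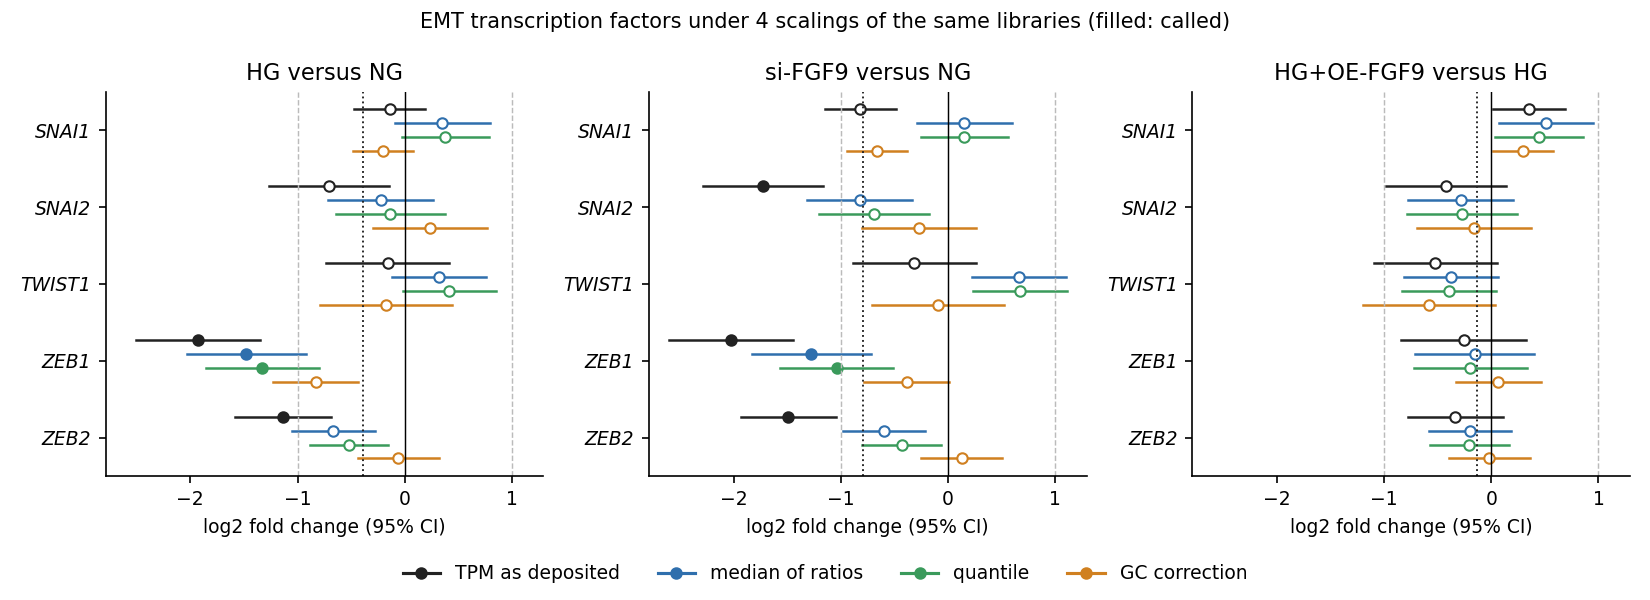
Log2 fold change with its 95% interval for the 5 tested members in 3 comparisons, under TPM as deposited and 3 other scalings. Filled points passed the call rule, the dotted line is the median of all tested genes for TPM as deposited, and the dashed lines mark a log2 fold change of 1 in either direction. ZEB1 is called in HG and si-FGF9 under 3 of the 4 scalings, and no point is filled for HG+OE-FGF9 versus HG.

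Ratios of members within a library do not change when all values of that library are multiplied by one factor, though the correction for GC content and quantile normalisation can change them. The ratio of SNAI1 to ZEB1 was 2.12 to 2.57 in NG and 6.14 to 33.0 in HG, against 6.48 to 15.7 for si-FGF9 and 18.8 to 34.2 for HG+OE-FGF9. NG did not overlap any other group (two-sided exact permutation p = 0.1 for each, the smallest that 3 against 3 libraries allow). In the mean of log2 ratios, HG was 2.58 and si-FGF9 1.98 above NG. The GC content of SNAI1 and ZEB1 lies far apart, and with GC content corrected the si-FGF9 group differed from NG by -0.66 for SNAI1 and -0.39 for ZEB1, which turns the direction of this ratio. In HG those values were -0.20 and -0.83, and the direction stayed. The ratio of ZEB2 to ZEB1, 2 genes of like GC content, was 1.33 to 1.68 in NG and 1.93 to 5.96 over the 9 other libraries, again without overlap (exact permutation p = 0.1 for each group). ZEB1 was thus lower relative to ZEB2 in each of the 9 libraries outside NG than in any NG library. ZEB1 made up 10.8% to 12.9% of the summed TPM of the 5 factors in NG and 1.39% to 4.88% in the other 9 libraries. The share of SNAI1 was 23.7% to 30.3% in NG and 28.8% to 45.8% in HG, against 31.2% to 34.9% for si-FGF9 and 41.8% to 58.1% for HG+OE-FGF9. TWIST1 took 36.4% to 42.9% in si-FGF9 and 18.7% to 29.8% in HG+OE-FGF9. The sum of the 5 was 58.4 to 66.4 TPM in NG and 36.8 to 45.8 in HG, against 24.8 to 31.7 for si-FGF9 and 35.9 to 41.0 for HG+OE-FGF9.

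**Figure D4:**
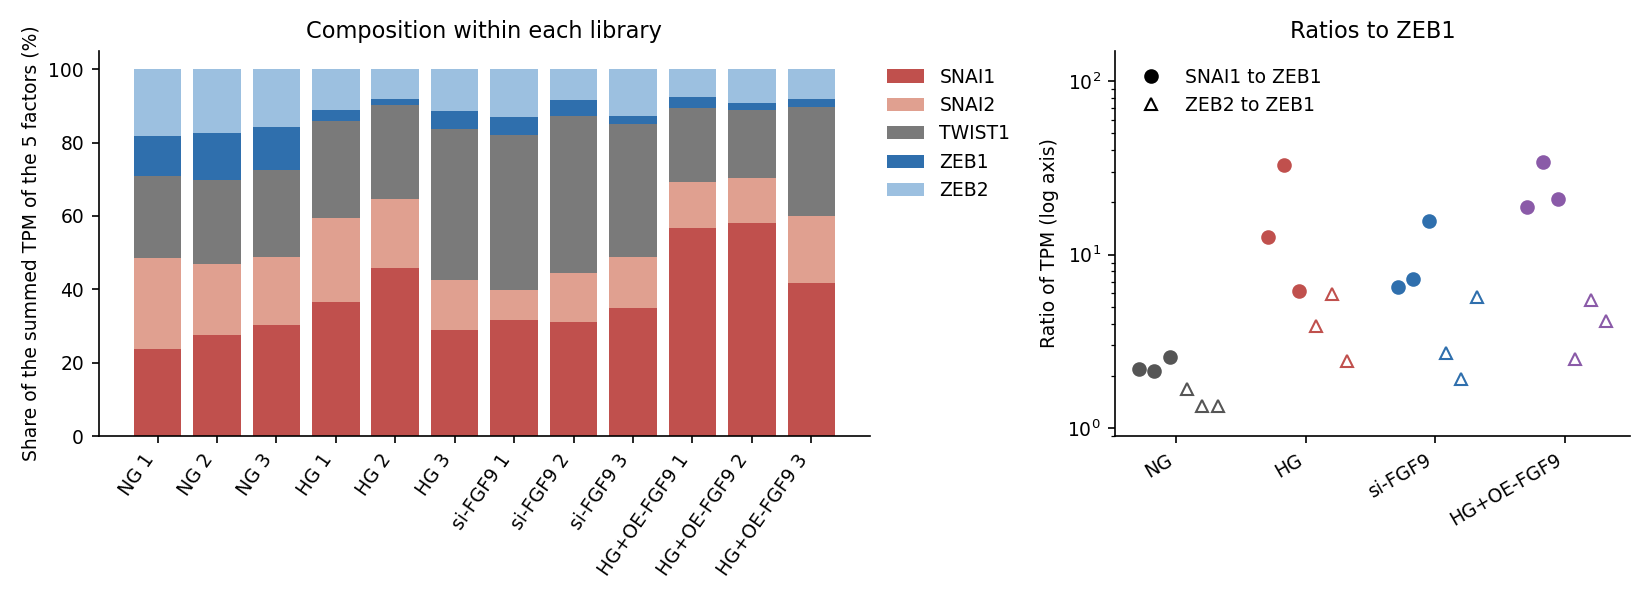
Left, share of each of the 5 tested members in their summed TPM, in percent, for each library. Right, ratio of SNAI1 to ZEB1 (circles) and of ZEB2 to ZEB1 (triangles) in each library on a log axis. The ZEB1 share is 10.8% to 12.9% in the NG libraries and at most 4.88% elsewhere, and SNAI1 takes 41.8% to 58.1% in HG+OE-FGF9.

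The antisense transcript ZEB1-AS1 starts within ZEB1 and runs away from it (chr10:31206278-31320447, minus strand), sharing its promoter region. It had 4.94, 4.80 and 3.31 TPM in NG and 1.35, 0.97 and 3.26 TPM in HG. The si-FGF9 libraries had 1.99, 0.67 and 0.90 TPM and the HG+OE-FGF9 libraries 1.44, 0.99 and 2.63 TPM. It was called lower in si-FGF9 versus NG at -1.32 (SE 0.329, limma adjusted p = 0.00332), and at -0.97 (adjusted p = 0.0286) in HG versus NG it missed the limit on the fold change. With GC content corrected it was at -0.12 in si-FGF9 and -0.22 in HG. Whether reads were assigned by strand is not given in the sources used here, so that reads of ZEB1 and ZEB1-AS1 from the overlap cannot be told apart. The same holds for ZEB2 and ZEB2-AS1 (mean 0.22 TPM). OVOL1-AS1 had a mean of 0.0117 TPM, and the pseudogene SNAI1P1 was listed at 0 throughout.

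By Pearson's r of log2(TPM + 1) over the 12 libraries, the genes most like SNAI1 were HSPB8 (r = 0.989), POLR2A (0.977) and LINC02693 (0.976). For TWIST1 they were LINC00997 (0.971), DZIP1L (0.967) and HOXB8 (0.963), and for SNAI2 they were RDH14 (0.986), GBP1 (0.986) and NSF (0.981). These values describe 12 libraries of 4 groups that share their culture and scaling, and they are the highest of 14639.

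Some other EMT factors were also called lower against NG. Of 13 such genes listed, 8 were tested, and 4 were called lower and 0 higher in HG versus NG, 4 and 0 in si-FGF9 versus NG, and 0 and 0 in HG+OE-FGF9 versus HG. Their median log2 fold change was -0.98, -1.22 and -0.54 in the 3 comparisons, beside -0.39, -0.79 and -0.13 for all tested genes. Of all tested genes 22.7%, 42.2% and 2.67% were called lower. With the median of ratios 1 and 2 of the 8 were called lower in HG and si-FGF9, beside 8.27% and 17.5% of all tested genes. With GC content corrected these counts were 2 and 3, beside 3.06% and 12%. ETS1, a factor that drives matrix protease genes and ZEB genes, fell from 73.55 to 83.93 TPM in NG to 12.74 to 23.2 TPM in HG and 5.16 to 6.1 TPM in si-FGF9. Its log2 fold change was -2.03 (SE 0.279, limma adjusted p = 0.000674) and -3.60 (SE 0.279, adjusted p = 4.63e-06), and it was called under all 4 scalings. HMGA2, an architectural chromatin protein that acts on SNAI1 and TWIST1, was called lower at -1.04 and -1.88, though at 0.05 in HG with GC content corrected. SOX4 was called lower in HG at -1.13 and missed the limit on the fold change in si-FGF9 at -0.71. In si-FGF9 versus HG it was at 0.41 (SE 0.254, limma adjusted p = 0.22) with overlapping libraries, so that no difference between HG and si-FGF9 was shown. With the median of ratios or quantile normalisation, only ETS1 of the list was called lower in HG. The HG call of SOX4 held in 5 of the 6 fits without 1 library, and that of HMGA2 in 4.

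The epithelial side was represented by factors other than GRHL2, OVOL1 and ESRP1. Of 15 listed, 8 were tested, and 2 were called lower in HG versus NG, 5 in the si-FGF9 group versus NG and 2 in HG+OE-FGF9 versus HG, with none higher, beside 22.7%, 42.2% and 2.67% of all tested genes called lower. The si-FGF9 count was 2 with the median of ratios and with quantile normalisation, beside 17.5% and 17.1% of all tested genes. The relatives OVOL2 (mean 1.12 TPM) and ESRP2 (3.74 TPM) and the splicing factor RBM47 (3.48 TPM) were present, named here after their values were seen. KLF4, which represses SNAI2, fell in HG at -1.90 (SE 0.272, limma adjusted p = 0.000723) and in si-FGF9 at -2.02 (SE 0.272, adjusted p = 4.56e-05), under all 4 scalings. KLF5 was called lower at -1.20 and -1.89, but its HG call was lost under the 3 other scalings, where only KLF4 of the list was called lower. That call of KLF5 was also lost without HG replicate 2, at -0.96. ELF3, an epithelial ETS factor, had 131.5 to 153.52 TPM in NG and 77.68 to 91.28 in HG, against 35.81 to 46.62 for si-FGF9 and 30.82 to 54.81 for HG+OE-FGF9, and was called lower in si-FGF9 versus NG at -1.76 and in HG+OE-FGF9 versus HG at -1.10. The call of ELF3 in HG+OE-FGF9 versus HG was lost without HG+OE-FGF9 replicate 1 (-0.99) or 2 (-0.96).

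TWIST1 dimerises with the E proteins TCF3, TCF4 and TCF12, and ID proteins bind E proteins without DNA. Of 7 such genes 6 were tested. TCF12 was called lower in HG at -2.20 (SE 0.372, limma adjusted p = 0.0013) and in si-FGF9 at -2.74 (SE 0.372, adjusted p = 4.88e-05), from 12.99 to 15.36 TPM in NG to 0.82 to 5.54 and 1 to 1.8 TPM. ID1 was called lower in HG+OE-FGF9 versus HG at -1.58, with an adjusted p of 0.0697 and overlapping libraries, since HG replicate 3 had 114.29 TPM against 402.18 and 460.18 TPM, and its call held in 2 of the 6 fits without 1 library. For TPM as deposited, no other gene of this list was called in these 3 comparisons, beside 22.7%, 42.2% and 2.67% of all tested genes called lower. With GC content corrected, 1 was called lower and 1 higher in si-FGF9, beside 12% and 12.3% of all tested genes. With the median of ratios, 0 were called in HG+OE-FGF9 versus HG, beside 1.78% lower and 3.64% higher of all tested genes, so that the ID1 call was lost.

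The corepressors through which Snail and ZEB proteins act numbered 20, all tested. In HG 6 were called lower and in si-FGF9 12, with none higher and none called in HG+OE-FGF9 versus HG, and the median was -0.36, -1.15 and -0.40. Of all tested genes 22.7% and 42.2% were called lower in HG and si-FGF9, with medians of -0.39 and -0.79. With GC content corrected 0 and 5 of the list were called lower, beside 3.06% and 12% of all tested genes. HDAC2, a histone deacetylase, was called at -1.14 and -2.0, and HDAC1 in si-FGF9 at -1.27, as were the LIM protein AJUBA at -1.35 and MTA1 of the NuRD complex at -1.01, a call that held in 3 of the 6 fits without 1 library and was at 0.0083 with the median of ratios. With the median of ratios 5 of the 20 were called lower and 5 higher in si-FGF9, beside 17.5% and 19.2% of all tested genes. The direction of the list thus depended on the scaling, as did the median of all tested genes, which was then 0. Of 18 genes that set the stability of Snail, Twist and ZEB proteins, 17 were tested, and 9 were called lower in HG and 12 in si-FGF9, beside 22.7% and 42.2% of all tested genes. These counts were 2 and 6 with the median of ratios, beside 8.27% and 17.5% of all tested genes. With GC content corrected they were 1 and 3, beside 3.06% and 12%. Those called for TPM as deposited included both the COP9 subunit gene COPS2 (-1.87 and -2.79) and the deubiquitinase gene USP10 (-1.13 and -2.02), and in si-FGF9 the ubiquitin ligase gene MDM2 (-1.29), although MDM2 was at 0.11 with GC content corrected. Other genes of ubiquitin ligases were called lower in both HG and si-FGF9, namely FBXW11, FBXL5, FBXO11, FBXO45, FBXW7 and SIAH1, named after their values were seen. GSK3A, a GSK3 kinase of the kind that marks Snail for destruction, was the only one called higher, in HG+OE-FGF9 versus HG at 1.03 (SE 0.264, limma adjusted p = 0.0315), and its call held in 3 of the 6 fits without 1 library.

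Most signals upstream of the EMT factors were called lower against NG for TPM as deposited. All 15 were tested, and 9 were called lower in HG versus NG, 13 in the si-FGF9 group versus NG and 1 in HG+OE-FGF9 versus HG, with medians of -1.32, -2.24 and -0.51, beside 22.7%, 42.2% and 2.67% of all tested genes called lower. With GC content corrected, 3, 9 and 1 were called lower, beside 3.06%, 12% and 2.18%. EGR1, an immediate early factor that induces SNAI1, had a mean of 132.2 TPM in NG and 0.613 in HG, against 0.327 for si-FGF9 and 1.18 for HG+OE-FGF9, with log2 fold changes of -6.39 in HG and -6.67 in si-FGF9 (SE 0.202, limma adjusted p = 5.23e-09 and 3.13e-09). TGFB2, a TGF-beta ligand that induces EMT, was called lower in all 3 comparisons at -2.44, -3.61 and -1.57. The ligand gene TGFB1, also on the list and named after its values were seen, went the other way against NG. It was at -0.13 in HG+OE-FGF9 versus HG (limma adjusted p = 0.531). Against NG it was at 0.35 in HG (adjusted p = 0.0413) and 0.97 in si-FGF9 (adjusted p = 4.32e-05). Neither of these groups overlapped NG, and both values missed the limit on the fold change. HIF1A, which induces TWIST1 under hypoxia, was at -2.43 and -3.59, and CTNNB1, the beta-catenin gene, at -1.65 and -2.76. EGR1, TGFB2 and HIF1A were called lower in HG and si-FGF9 under all 4 scalings.

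The genes that the EMT factors are known to act on did not move as one. Of 30 epithelial targets 22 were tested, with 2 called lower in HG versus NG, 6 lower and 2 higher in si-FGF9 versus NG, and 2 lower in HG+OE-FGF9 versus HG, beside 22.7%, 42.2% and 2.67% of all tested genes called lower. In si-FGF9 versus NG 5.36% of all tested genes were called higher. CDH1, the E-cadherin gene and the best known target of Snail and ZEB repressors, did not pass 0.28 TPM in any library and was not tested. CLDN1, a tight junction protein, was called lower at -1.30 in HG and -2.76 in si-FGF9, whereas AP1M2, an epithelial sorting adaptor, was called higher in si-FGF9 at 1.10 (SE 0.163, limma adjusted p = 8.40e-05). With the median of ratios and with GC content corrected, no gene of the list was called lower in HG, CLDN1 included. The HG call of CLDN1 was also lost without HG replicate 2, at -0.96. MAL2 fell in si-FGF9 at -1.91. CD24 was called lower in HG+OE-FGF9 versus HG at -1.36 and in si-FGF9 versus NG at -1.03, the latter at 0.01 with the median of ratios. The median of the list in si-FGF9 was -0.30 for TPM as deposited and 0.73 with the median of ratios. In the latter case 2 were called lower and 8 higher, beside 17.5% and 19.2% of all tested genes.

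Mesenchymal targets numbered 24, of which 17 were tested. In HG 4 were called lower and 1 higher, in si-FGF9 8 lower and 1 higher, and in HG+OE-FGF9 versus HG 3 lower and 0 higher, with medians of -0.84, -0.88 and -0.50, and with the median of ratios that in si-FGF9 was 0.17. Of all tested genes 22.7%, 42.2% and 2.67% were called lower, and 1.65%, 5.36% and 2.94% higher. With the median of ratios 1 of the list was called lower and 1 higher in HG, beside 8.27% and 7.43% of all tested genes. FN1, the fibronectin gene, had a mean of 5186 TPM in NG and 2565 in HG, against 1489 for si-FGF9 and 1023 for HG+OE-FGF9, and was called lower in si-FGF9 versus NG at -1.80 and in HG+OE-FGF9 versus HG at -1.52, the latter in only 2 of the 6 fits without 1 library. SPARC, a matrix glycoprotein gene, was called lower in si-FGF9 (-1.61), and the membrane protease gene MMP14 in HG (-1.23) and si-FGF9 (-1.63). CDH2, the N-cadherin gene, had 87.17 to 91.63 TPM in NG and 15.1 to 35.42 TPM in the other 9 libraries, and S100A4 was the single gene of the list that was called higher in HG and si-FGF9 versus NG, at 1.21 in HG and 2.15 in si-FGF9; both were named after their values were seen. The summed fibroblast markers were 62.3 to 89.2 TPM in NG and 11.5 to 40.9 TPM elsewhere. Only LUM and COL1A1 of the 6 had a mean of at least 1 TPM, both are on the list of mesenchymal targets too, and their part in its counts was not tested.

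**Figure D5:**
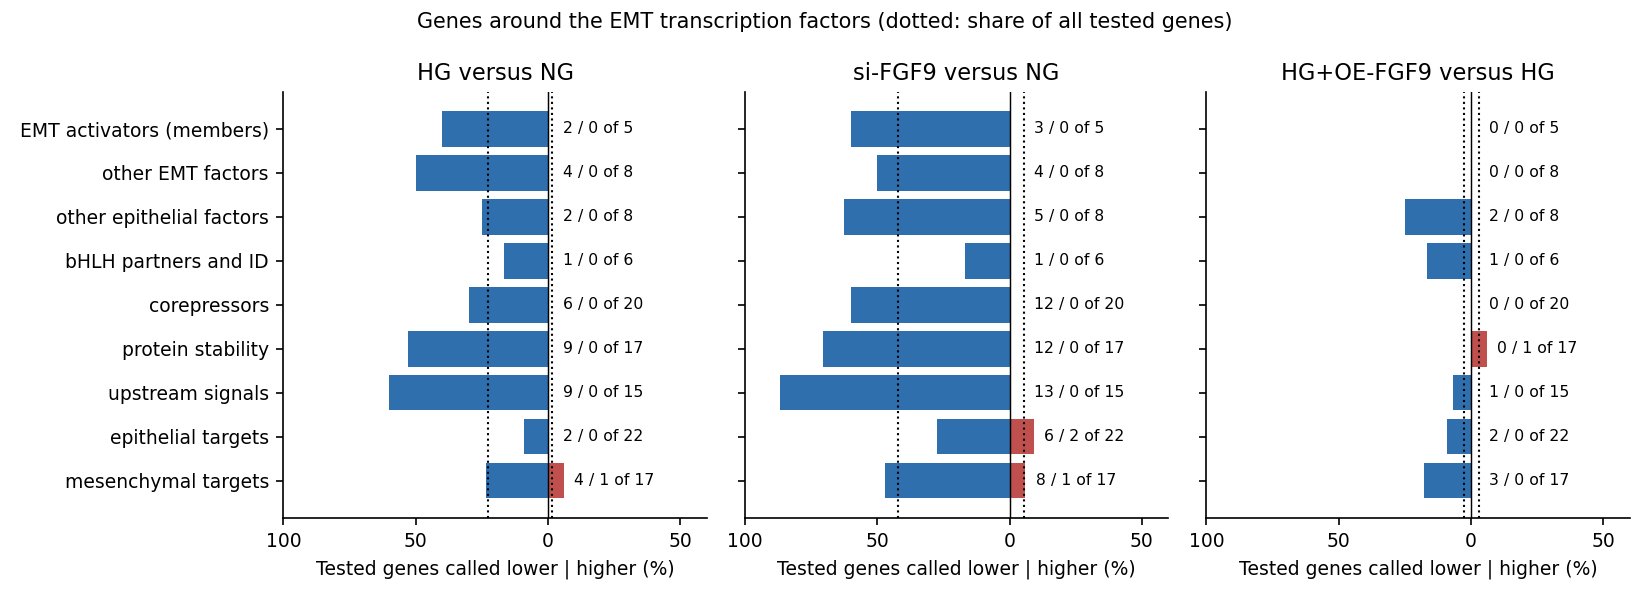
Share of the tested genes of each list called lower (blue, to the left) and higher (red, to the right) in 3 comparisons, in percent, with the counts lower and higher beside each bar. Dotted lines mark the share of all 14639 tested genes. Upstream signals have 9 and 13 of 15 genes called lower in HG and si-FGF9, and none of the 5 tested members is called in HG+OE-FGF9 versus HG.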

How the data were processed

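TPM per gene were deposited by the authors for each of 12 HK2 libraries, sequenced on a HiSeq3000 and scaled to the same sum in each library. The submitters' processing notes name Bowtie 0.12.2 and the mouse build mm8, although the identifiers are human, and the quantifier and annotation are not given in the sources used here. TPM were tested on log2(TPM + 1) with limma 3.58.1 in R 4.3.3, in 1 fit of all 12 libraries with a variance trend and the group as the only term, for 14639 genes with at least 1 TPM in 3 or more libraries. P-values were adjusted by Benjamini-Hochberg over all tested genes. The fit was tested on simulated data. Symbols were found for 42300 identifiers. GC content came from the longest GENCODE v29 transcript on GRCh38, for 96.9% of tested genes, and was corrected with a natural spline of 5 degrees of freedom in each library. Sequences came from RefSeq (GRCh38.p14).

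Named were all members, FGF9, and per list up to 4 called genes of highest mean TPM, or 2 where none was called, all antisense genes and pseudogenes, and for the 3 members of highest mean TPM the 3 genes of highest r. Some genes that this rule names are not reported here. The members and lists were chosen with earlier results of these data known. Exact permutation tests were used for ratios. Alternatives were other filters, pseudocounts, thresholds, samples, scalings, a replicate block and leaving out each library.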

Additional observations from a re-analysis of the deposited data

How the results depend on the processing

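TPM without counts leave the depth unknown, and with 3 libraries a group an exact test cannot go below p = 0.1. The GC trend and the shift of the median gene are tied to the groups. The count of members called lower in HG versus NG was 2 in the main analysis and became 1 under a filter of 1 TPM in every library (ZEB1 was then not tested), 1 with the median of ratios, 1 with quantile normalisation, and 0 with the correction for GC content, with or without the replicate block. In si-FGF9 versus NG it was 3 and became 1, 1, 0 and 0 under the median of ratios, quantile normalisation, and the correction for GC content without and with the block. Under the first 3 of these scalings, 8.27%, 8.33% and 3.06% of all tested genes were called lower in HG versus NG. The shares in si-FGF9 versus NG were 17.5%, 17.1% and 12%. Leaving out 1 library gave 1 to 2 and 3 to 3 members.

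Values that turned their sign were as follows. With the median of ratios, SNAI1 was at 0.35 and TWIST1 at 0.32 in HG versus NG, and SNAI1 at 0.15, TWIST1 at 0.66, MTA1 at 0.0083 and CD24 at 0.013 in si-FGF9 versus NG. With quantile normalisation, SNAI1 was at 0.38 and TWIST1 at 0.42 in HG versus NG, at 0.15 and 0.67 in si-FGF9 versus NG, and TWIST1 at 0.023 in HG+OE-FGF9 versus NG. With the correction for GC content, and the same with the replicate block, SNAI2 was at 0.24 and HMGA2 at 0.046 in HG versus NG, ZEB2 at 0.13 and MDM2 at 0.11 in si-FGF9 versus NG, ZEB1 at 0.067 in HG+OE-FGF9 versus HG and SNAI2 at 0.073 in HG+OE-FGF9 versus NG. Leaving out 1 library moved TWIST1 in HG versus NG between -0.43 and 0.035, and ZEB1 in HG+OE-FGF9 versus HG between -0.53 and 0.0016. The sign turned without HG replicate 2 for TWIST1 and without HG replicate 3 for ZEB1. The cause was not tested.

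Replicate numbers are shared by the groups, and only 3 of 9 pairs of libraries with the same number had correlated deviations over 0.1, with values from -0.163 to 0.248. Correlations this weak cannot show whether libraries with the same number were handled together, so that their pairing remains unknown. With the replicate block, 2, 3 and 0 members were called lower in the 3 comparisons. Of 18 checks, 8 had a library correlated best with its own number. Over all genes, 3570, 6966 and 821 were called in the 3 comparisons, in the order of the report, and 3518, 6922 and 793 with the block. In HG versus NG 2299 were called with the median of ratios, 2236 with quantile normalisation, 970 with GC content corrected, 2370 under the filter of 1 TPM in every library and 2240 without HG replicate 2. In si-FGF9 versus NG 3452 were called with GC content corrected. In HG+OE-FGF9 versus HG 428 were called under that filter, and 435 to 1498 without 1 library. With an adjusted p under 0.05 and no limit on the fold change, 7174 were called in HG versus NG and 1395 in HG+OE-FGF9 versus HG.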
